A study of Mus musculus with 121 samples.

Results

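The negative limb of the mammalian clock was followed in mouse fibroblasts through 6 genes: the period genes Per1, Per2 and Per3, the cryptochrome genes Cry1 and Cry2, and Ciart, which encodes the repressor also called CHRONO. They were chosen by name, from Ensembl identifiers matched to mouse symbols, and make up 6 of the 31053 genes listed. All 6 passed the filter on low counts, together with 13292 genes in all. In the clock, CLOCK and BMAL1 (encoded by Clock and Arntl) bind E-boxes in promoters and switch on Per, Cry and Ciart. PER and CRY proteins then enter the nucleus together and hold CLOCK and BMAL1 in check until kinases and ubiquitin ligases clear them, and CHRONO represses the same activators. In fibroblasts each cell keeps its own rhythm, and medium, serum or glucocorticoid pulses can set many cells to a common time.

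The cells were an immortalized line of ear fibroblasts from mice with the Per2::Luc knock-in (genotype PER2::LUC sv), which all groups carry. In knock-ins of this name luciferase is fused to the end of the PER2 reading frame, and an SV40 polyadenylation signal stands in place of the gene's own 3′ end. Whether the line also holds an unmodified Per2 copy is not given in the sources used here, and the part of the allele in the Per2 counts was not tested. Medium was changed every 12 h for 3 cycles. In HL, medium high in glucose and insulin (H) was followed by medium low in both (L), in LH the order was the opposite, and in HH the H medium was renewed at each change. After 12 h without further changes, RNA was collected 6 times, 4 h apart, and time is given here in hours since the first collection. There were 62 libraries: HL had 21, LH 22 and HH 19, and each collection of a treatment had 2 to 4. The study describes its replicates in general as biological, but the labels do not tie the libraries of a group to separate cultures, so the p-values measure the spread between these libraries, which may be technical. The 9 fibroblast markers examined were all present, with a summed level of 9820 to 38600 CPM (counts per 1000000 counts of the library). Krt5, Krt14 and Epcam of epithelium and all 3 markers each of melanocytes and muscle averaged under 1 CPM, as did Pecam1 and Cdh5 of endothelium and Adgre1 of leukocytes. Cdh1 of epithelium, Ptprc and Cd68 of leukocytes and Kdr of endothelium averaged at least 1 CPM, and the summed level was 0 to 4.57 CPM for epithelium, 1.42 to 124 CPM for leukocytes and 22.8 to 270 CPM for endothelium. Their part in the results was not tested.

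The sources disagree on which library is which. For 40 of the 62 libraries, a summary of reads gives the library number to another name (35) or does not list it (5). The conflict touches all libraries of LH and those of HL after the first collection, and none of HH. Results for HL and LH are therefore given by the titles of the samples, which is the main assignment, and again by library number, which places 57 libraries, 19 per treatment, and leaves 1 library in the fifth collection of LH. Library totals were 2136819 to 11619095 counts, except for a library titled LH collection 2 replicate 2 with 104912 counts. In that library a gene at 10 CPM is worth 1.05 counts, and its values for the 6 genes are not informative.

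The promoters of the members were searched for the sites that clock factors are known to bind. RefSeq windows of the 250 bases before a transcription start (GRCm38.p6) were held for 5 of the 6 genes: Per1, with 2 starts, Per3, Cry1, Cry2 and Ciart. The E-box CACGTG, the same on both strands, occurred in the windows of 3 genes, against 6.02% of all 32851 promoter windows. Ciart had 3 of them, and 0.0609% of windows had 3 or more. The sites are printed 5′ to 3′ on the strand of the gene, with the E-box in capitals, and the pair nearest the Ciart start overlap in the bases shown.
Ciart, 116 bases before the start, chr3:95882328-95882355: gcatctagagtCACGTGttgccggtaag
Ciart, 58 bases before the start, chr3:95882270-95882297: gcagggggaggCACGTGcagaaccgcac
Ciart, 44 bases before the start, chr3:95882256-95882283: gtgcagaaccgCACGTGtctgggagggg
Cry1, 60 bases before the start, chr10:85185098-85185125: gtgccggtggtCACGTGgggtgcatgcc
Per1, 166 bases before the first start, chr11:69098772-69098799: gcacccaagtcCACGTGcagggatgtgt
The Ciart, Cry1 and Per3 genes lie on the minus strand and Per1 on the plus strand. The Cry1 site lies outside annotated genes, the Per1 site lies in an intron of a longer Per1 transcript, and the Ciart sites lie in an intron of the antisense gene C920021L13Rik. The E-box variant CACGTT, searched on both strands and found in 3.85% of windows, occurred before Cry1 and before Cry2.

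Per3 had no CACGTG in its window but held the D-box TTATGTAA, searched on both strands, at 2 places. D-boxes are bound by DBP, TEF and HLF, which activate, and by NFIL3, which represses. A D-box occurred in 0.819% of all windows and 2 or more in 0.0183%. The Per3 sites, D-box in capitals, lie in an intron of the long Camta1 gene.
Per3, 205 bases before the start, chr4:151044852-151044881: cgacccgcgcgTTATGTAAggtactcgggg
Per3, 158 bases before the start, chr4:151044805-151044834: cccgcccgcggTTATGTAAcccccgccgtg
A match is a stretch of letters and not a measured binding site.

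All 6 genes were expressed at low to moderate levels. Reads came from the 3′ ends of transcripts, so CPM does not grow with gene length and can be set side by side between genes. For Per2 this holds only as far as the knock-in allele, whose 3′ end is not that of the gene, left its counts unchanged, which was not tested. Over all 62 libraries the mean level was 20.9 ± 10.5 CPM (SD) for Cry1, 13.4 ± 6.13 for Cry2, 8.76 ± 3.41 for Per1, 8.07 ± 6.74 for Per3, 3.78 ± 3.84 for Per2 and 1.30 ± 1.23 for Ciart. Neighbours in this order crossed: Cry1 was above Cry2 in 48 of 62 libraries, Cry2 above Per1 in 44, Per1 above Per3 in 41, Per3 above Per2 in 55 and Per2 above Ciart in 49. The SD of Per2 exceeded its mean, and Per1 had the smallest SD for its level. The depth behind these values differs between genes. The median library held 103.5 counts of Cry1, 69 of Cry2, 48.5 of Per1, 35.5 of Per3, 15 of Per2 and 5 of Ciart, and Ciart had no count in 8 libraries. Counting error alone is 25.8% of the value at the median count for Per2 and 44.7% for Ciart, against 9.83% for Cry1. At the median depth a count of 0 allows up to 0.515 CPM (3 counts), and this limit covers counting error only.

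In the annotation, 3 of the 6 members overlap another gene. Per3 lies within Camta1 on the same strand, with no shared exon base and a median of 3.32 CPM for Camta1. C920021L13Rik, antisense to Ciart, shares no exon base and had a median of 0 and a highest level of 2.09 CPM, above the mean of Ciart itself. The transcript D930015M05Rik, antisense to Cry2, shares 295 exon bases with it and has no row of its own by that symbol. Whether the counting used strand is not given in the sources used here, so reads of Cry2 and of this transcript cannot be told apart. Between the sequencing runs of the 59 libraries that had a pair, the Spearman correlation of CPM was 0.85 for Per3, 0.72 for Cry1, 0.68 for Per2 and 0.60 to 0.62 for the other three.

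HH is the treatment on which titles and numbers agree, and there Per3, Cry1 and Cry2 passed the rank test for a 24 h rhythm before adjustment over genes, and Per3 and Per2 a cosine fit after it. Rhythms were tested with JTK_CYCLE, which ranks the values against 24 h curves and gives an exact P corrected over phases but not over genes, at a threshold of 0.01. The collections span 20 h, less than a full 24 h cycle. A pass in this test or the cosine fit therefore shows likeness to a 24 h curve, and neither a repeat nor the period could be tested. In HH 3 of the 6 genes passed, Per3, Cry1 and Cry2, where 1.99% of the 13292 genes tested did. Per2, Ciart and Per1 did not, with P of 0.0185, 0.027 and 0.0623. At 0.05, 5 of the 6 passed, where 6.39% of genes did, but this count rests on single replicates. Without replicate 1 the exact P of Per2 was 0.652 and that of Ciart 0.151, Ciart also stood above 0.05 without replicate 2 or 3, and Per1 fell below it without replicate 4 (exact P = 0.0128). After Benjamini-Hochberg adjustment over all genes no member passed at 0.05, with 0.0226% of genes called. A 24 h cosine fitted to the counts in edgeR, with adjustment over all genes, called 2 of the 6 in HH, Per3 and Per2, against 0.158% of genes. The 3 treatments share 1 estimate of the spread in this model, and with the HL and LH libraries placed by number it called 3 in HH, Per2, Per3 and Cry1, against 0.371%.

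Per2, the period gene that most strongly supports the rhythm in mice and the one the reporter reads, was low early and high in the second part of the HH series. Its levels were 0.666, 2.46, 1.07 and 2.76 CPM at 0 h, 0.734, 0.622 and 0.93 CPM at 4 h, and 4.63, 2.61 and 0.857 CPM at 8 h. At 12 h they were 13.1 and 12.3 CPM, at 16 h 5.7, 19.4 and 6.54 CPM, and at 20 h 5.65, 0.165, 0.214 and 7.41 CPM. The 12 h libraries stood above all those of 0, 4 and 8 h, while the 20 h libraries split, with a pair above 5 CPM and a pair below 0.3 CPM. The fitted peak-to-trough range was 13.0-fold (95% interval 4.55 to 37.0) with a peak at 14.5 ± 0.7 h (SE), and the adjusted p was 0.024 in edgeR. The exact rank test, which gave P = 0.0185, did not call it.

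Per3, a period gene that mice can lose with little change in rhythm, passed both rhythm tests in HH. The 4 libraries of 0 h had 4.83, 3.89, 4.29 and 4.06 CPM and the 3 of 4 h had 5.87, 2.74 and 2.09 CPM. At 8 h the levels were 16.2, 13.9 and 4.46 CPM, at 12 h 33.2 and 12.7 CPM, at 16 h 12.7, 15.5 and 21.9 CPM, and at 20 h 6.28, 6.12, 5.56 and 6.13 CPM. Every library of 12 and 16 h was above every library of 0, 4 and 20 h, and the SD of the 20 h libraries was 0.318 CPM. The range was 6.39-fold (95% interval 3.18 to 12.8) and the peak at 13.0 ± 0.7 h, with an exact JTK P = 0.000126 and an adjusted edgeR p of 0.00907. Per3 lost the JTK call with the second sequencing run alone (exact P = 0.015).

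Per1, which in many cells also answers quickly to serum, cAMP and glucocorticoids, moved least. HH means were 7.32 ± 1.7 CPM (SD, n = 4) at 0 h and 11.5 ± 2.56 CPM (n = 4) at 20 h, with overlapping ranges (5 to 9.01 and 8.79 to 15 CPM). The fitted range was 1.76-fold (95% interval 1.14 to 2.71), and no test called it in HH after adjustment (edgeR adjusted p = 0.512).

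Cry1, the stronger repressor of the cryptochrome pair and a gene known to peak later than the period genes, was lowest at 4 and 8 h in HH. Its levels were 24.2, 19, 16.5 and 26.3 CPM at 0 h, 6.42, 8.59 and 10 CPM at 4 h, and 9.76, 8.66 and 10.6 CPM at 8 h. They were 17.7 and 26.5 CPM at 12 h, 36.6, 22.1 and 18.5 CPM at 16 h, and 23.5, 29.6, 30.8 and 38.1 CPM at 20 h. No library of 4 or 8 h reached any library of the other 4 collections. The range was 3.76-fold (95% interval 2.2 to 6.41) and the peak at 18.3 ± 0.8 h, with an exact JTK P = 0.000295 and an edgeR adjusted p of 0.0574. The JTK call held without each of the 4 replicates in turn. With the clock hours of the labels in place of the order of collections, 0 of the 6 genes passed JTK_CYCLE in HH. The P was then 0.0807 for Cry1, 0.0946 for Per3 and 0.533 for Cry2. But the labels give the collections of 4 h and 16 h, at opposite points of a 24 h cycle, the same hour. That weakens any 24 h rhythm, so this alternative cannot decide whether the calls hold.

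Cry2, whose loss lengthens the period in mice where loss of Cry1 shortens it, was lowest in the first HH collection. The 0 h libraries had 8.83, 6.75, 6.01 and 6.01 CPM, those of 4 h 12.5, 9.21 and 8.37 CPM, and those of 8 h 14.1, 13.4 and 13.7 CPM. At 12 h the levels were 13 and 23.8 CPM, at 16 h 17.9, 16.1 and 16.5 CPM, and at 20 h 13, 24, 14.7 and 16.8 CPM. All libraries from 8 h on were above all those of 0 and 4 h. The mean was 18.4 CPM at 12 h, 16.8 CPM at 16 h and 17.1 CPM at 20 h, so Cry2 did not return to its 0 h level within the series. JTK gave an exact P = 0.00123 with a fitted range of 2.43-fold, but the call was lost without replicate 1 (P = 0.0117), replicate 3 (P = 0.0288) or replicate 4 (P = 0.0181), and the edgeR adjusted p was 0.404.

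Ciart was highest at 8 and 12 h in HH, at 2.32, 2.61 and 0.514 CPM and at 1.96 and 2.79 CPM. It had 0.833, 0.409, 0 and 0.812 CPM at 0 h, 0.542, 1.14 and 0.947 CPM at 16 h, and 0.471, 0, 0 and 1.43 CPM at 20 h. The 12 h libraries did not overlap those of 0, 4, 16 or 20 h, but these values rest on few counts. With an exact P = 0.027 in HH it did not pass. Leaving out replicates 1, 2 and 3 in turn gave exact P of 0.151, 0.147 and 0.51, and leaving out replicate 4 gave 0.00264.

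**Figure D1:**
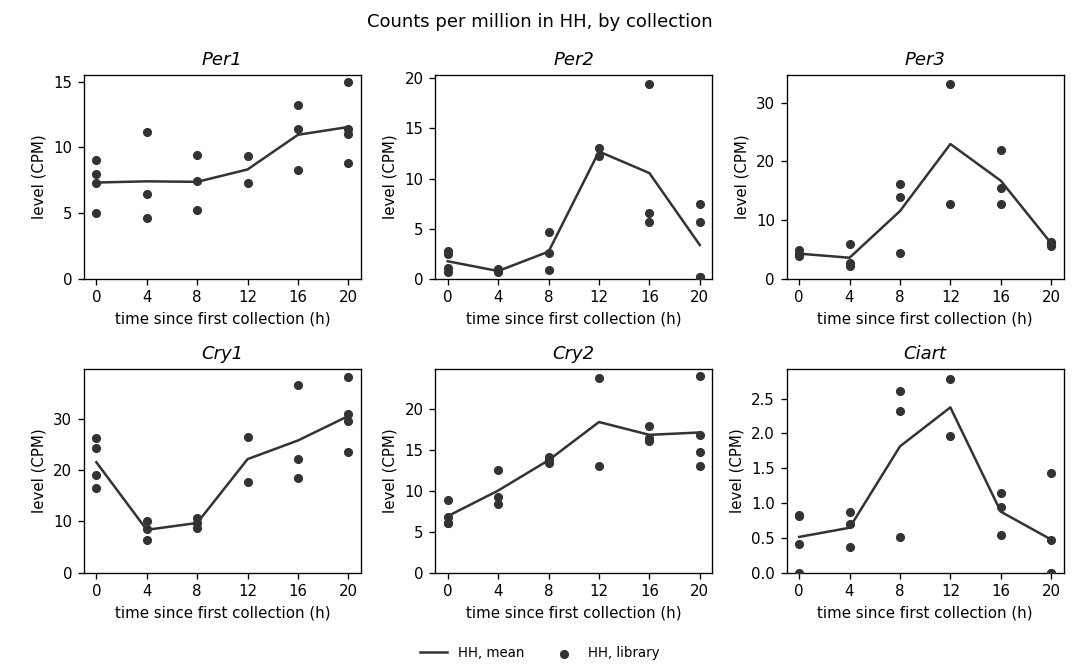
Levels of the 6 genes in HH in CPM (vertical axes, from 0, a different scale in each panel) against hours since the first collection. Each point is 1 of 19 libraries and the line joins the collection means. Per2, Per3 and Ciart are highest at 12 h (means 12.7, 22.9 and 2.38 CPM), Cry1 at 20 h (30.5 CPM), and Per1 changes least.

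In HL the profile of each gene depended on the assignment of libraries. By titles 0 of the 6 genes passed JTK_CYCLE at 0.01, where 0.820% of 13292 genes did. At 0.05 only Ciart passed (exact P = 0.0125), with 3.42% of genes. It was above 0.05 without replicate 1 (exact P = 0.111) or replicate 4 (0.311), and with the first or second sequencing run alone (0.0922 and 0.24). The edgeR cosine gave an unadjusted p under 0.01 for 3 genes, Per3, Cry1 and Ciart, against 1.12% of genes, but called none of the 6 after adjustment, with 0.0451% called. By library numbers 4 of the 6 passed, Per2, Per3, Cry1 and Ciart, where 1.82% of 13198 genes did, and 3 of them (Per2, Per3 and Cry1) also passed after adjustment of the JTK P over all genes, with 0.0833% called. edgeR called the same 4 genes by numbers, against 0.189% of genes. The first collection holds the same 3 libraries in both assignments.

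Per2 in HL stood between 0 and 4.49 CPM in all libraries of 0 to 16 h by titles, and at 20 h had 10.4, 7.04, 0.919 and 4.72 CPM. By library numbers its levels were 1.94, 0.901 and 1.6 CPM at 0 h, 0.613, 0.308 and 0.309 CPM at 4 h, and 3.1, 6.1 and 3.02 CPM at 8 h. They were then 6.71, 10.4, 12.5 and 4.2 CPM at 12 h, 5.47, 4.4 and 4.83 CPM at 16 h, and 3.83, 3.46 and 1.14 CPM at 20 h. By numbers the 4 h libraries were below all others and the libraries of 12 and 16 h above all those of 0, 4 and 20 h. The exact JTK P was 1 by titles and 3.58e-05 by numbers, and the fitted range 2.33-fold (95% interval 0.883 to 6.17) and 8.64-fold (3.6 to 20.7).

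Per3 in HL had an exact JTK P = 0.418 by titles and 3.39e-05 by numbers. By titles the libraries of 1 collection spread widely, with 17.1, 1.42 and 13.8 CPM at 16 h and 13.7, 25.3, 2.02 and 8.26 CPM at 20 h. By numbers the levels were 4.8, 3.6 and 1.77 CPM at 0 h, 13.6, 9.23 and 12.4 CPM at 8 h, 11, 21.4, 24.4 and 9.54 CPM at 12 h, and 4.38, 5.69 and 6.5 CPM at 20 h. The libraries of 8, 12 and 16 h were then all above those of 0, 4 and 20 h, with a fitted peak at 12.0 ± 0.8 h against 17.4 ± 0.9 h by titles.

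Cry1 in HL peaked at 1.2 ± 1.0 h by titles and 18.8 ± 0.7 h by numbers. By titles the 4 h libraries were the highest on average (35.3, 35.6, 56.2 and 17.3 CPM) and those of 12 h the lowest (7.59, 19.5, 8.02 and 6.85 CPM). By numbers the lowest were those of 8 h (6.97, 10.3 and 9.24 CPM), and the highest those of 16 h (30.4, 25 and 29.4 CPM) and 20 h (28.8, 25.2 and 31.7 CPM). The exact JTK P was 0.0502 by titles and 9.79e-06 by numbers, the smallest P of the 6 genes in any treatment.

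Ciart in HL was highest at 20 h by titles (2.07, 3.94, 2.57 and 1.18 CPM) and at 8 and 12 h by numbers (3.87, 3.14 and 1.6 CPM, then 1.77, 2.84, 6.04 and 1.78 CPM). In both assignments it was low at 0 h (0.204, 0.36 and 0.321 CPM). Its fitted range was 6.3-fold by titles and 11.1-fold by numbers, with peaks at 17.6 ± 1.1 and 11.2 ± 0.8 h. Per1 did not pass in either assignment (exact JTK P = 0.227 and 0.0165), nor did Cry2 (P = 1 and 0.0283).

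**Figure D2:**
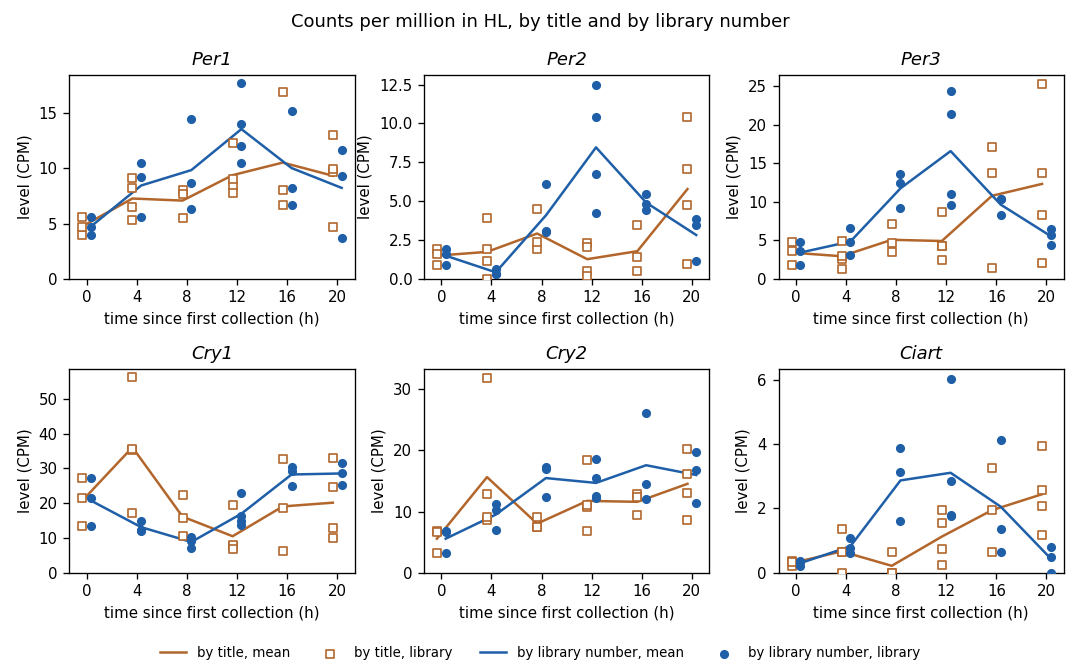
Levels of the 6 genes in HL in CPM (vertical axes, from 0) against hours since the first collection, with open squares for the 21 libraries placed by title, filled circles for the 19 placed by library number, and lines through the collection means. By number, Per2 and Per3 are highest at 12 h (means 8.45 and 16.6 CPM) and Cry1 is lowest at 8 h (8.83 CPM). By title, Per2 and Per3 are highest at 20 h (5.76 and 12.3 CPM).

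In LH, 2 of the 6 genes passed by titles, Per3 (exact JTK P = 0.000373) and Cry1 (P = 0.00384), where 1.51% of 13292 genes did. By library numbers 1 passed, Ciart (exact P = 6.61e-05), where 2.14% of 13198 genes did. None passed after adjustment in either assignment, and edgeR called none in LH after adjustment, with 0.158% of genes called by titles and 0.242% by numbers, the nearest member being Ciart by numbers (adjusted p = 0.052). With 1 library at 16 h by numbers, that collection has no spread of its own. Per3 lost the call by titles without replicate 1 (exact P = 0.0167), and Cry1 without any one of the 4 replicates (P of 0.0117 to 0.0601) and with the second run alone (P = 0.195). Per2 (exact P = 0.0803) passed without the library of 104912 counts (0.00721) and with the second run alone (0.00629), while the first run alone gave 0.135, leaving out 1 replicate at a time exact P of 0.0348 to 0.776 and leaving out the libraries that the authors' read summary marks as removed 0.3.

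Per3 in LH by titles had 1.15, 0 and 0.468 CPM at 4 h, the value of 0 from the library of 104912 counts. At 12 h it had 9.23, 12.4, 11 and 21.4 CPM and at 16 h 24.4, 9.54, 10.3 and 10.3 CPM. By numbers the libraries had 8.73, 4.21, 17.1 and 1.42 CPM at 8 h and 13.8, 13.7, 25.3 and 2.02 CPM at 12 h, a wide spread at both collections. The exact rank test then gave P = 0.396, while the unadjusted edgeR p was 0.000411 with a range of 3.52-fold (95% interval 1.9 to 6.53).

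Ciart in LH by numbers had 0, 0 and 0.639 CPM at 0 h, 0, 0.237 and 0.73 CPM at 4 h, and 1.96, 1.56, 1.95 and 0.63 CPM at 8 h. It then had 3.25, 2.07, 3.94 and 2.57 CPM at 12 h, 1.18 CPM in the only library of 16 h, and 0.78, 1.01, 0.569 and 1.85 CPM at 20 h. All 12 h libraries were above all others. By titles the collections overlapped (exact P = 0.448), with 6.04, 1.78, 1.37 and 0.647 CPM at 16 h. Cry1 in LH by titles was low at 8 h (12.1, 12.2, 15 and 6.97 CPM) and 12 h (10.3, 9.24, 15 and 23 CPM), with a fitted peak at 23.0 ± 1.1 h. By numbers its P was 0.0138 and the peak 17.7 ± 0.8 h. Cry2 had an exact P of 1 by titles and 0.0128 by numbers, Per2 0.0803 and 0.161, and Per1 0.156 and 0.333.

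**Figure D3:**
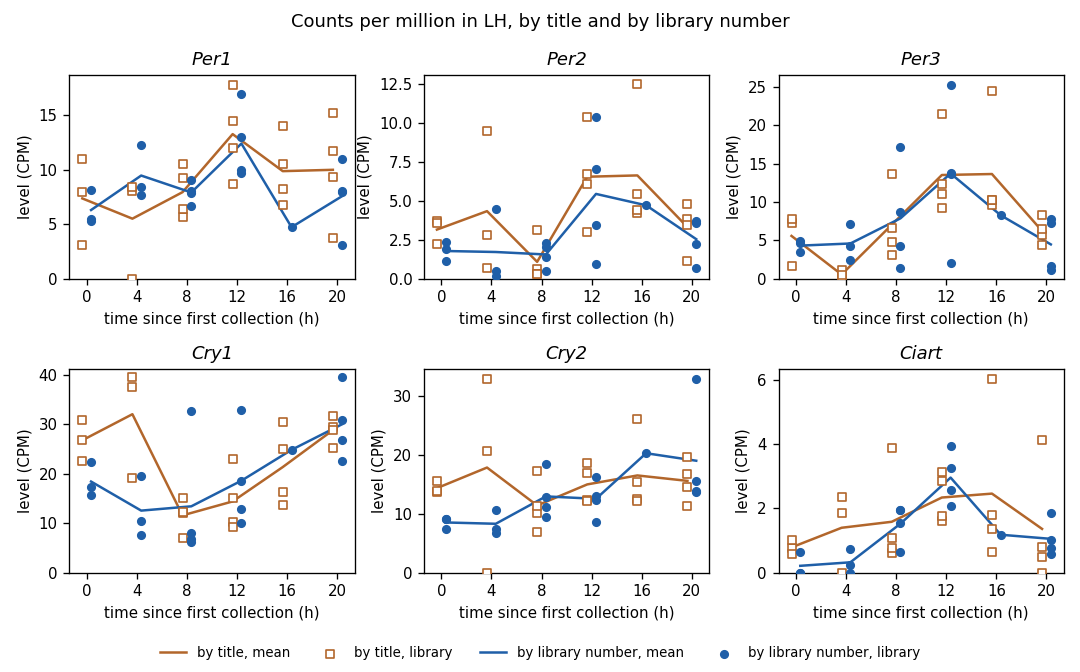
Levels of the 6 genes in LH in CPM (vertical axes, from 0) against hours since the first collection, with open squares for the 22 libraries placed by title, filled circles for the 19 placed by library number, and lines through the collection means. By number Ciart is highest at 12 h (mean 2.96 CPM) and Cry1 at 20 h (29.9 CPM), and 1 library stands at 16 h. The squares at 4 h include the library of 104912 counts, at 0 CPM for Per1, Per3, Cry2 and Ciart.

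With all treatments in 1 model, a shared 24 h cosine was tested in edgeR with adjustment over all genes. By titles it called 1 of the 6 genes, Per3 (adjusted p = 0.000125, range 4.21-fold, 95% interval 2.75 to 6.42), where 0.150% of 13292 genes were called. The unadjusted p was under 0.05 for 5 of the 6, Cry2 excepted, against 6.08% of genes. By library numbers it called 6 of 6, where 3.63% of 13198 genes were called, with adjusted p of 8.16e-09 for Per3, 1.85e-08 for Cry1, 3.75e-07 for Per2, 1.01e-05 for Ciart, 7.96e-05 for Cry2 and 0.0296 for Per1. HH is the same in both, so the difference between assignments comes from where the libraries of HL and LH are placed and which are left out. The call for Per1 was lost in 6 of 14 alternatives, the calls for the other 5 genes in none of theirs.

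How alike libraries of 1 group were also depended on the assignment. Over the 38 libraries of HL and LH with at least 1000000 counts that both assignments place, and on the log2(CPM + 1) scale, differences between the 12 groups held 48.4% of the variance of Ciart by titles and 73.6% by numbers. For Per1 the shares were 37.3% and 51.0%, for Cry1 50.4% and 60.6%, for Per3 43.5% and 48.1%, for Per2 59.9% and 63.5%, and for Cry2 65.0% and 67.0%. These shares are descriptions with no test.

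By library numbers the fitted range was widest for Per2 (7.99-fold, 95% interval 4.69 to 13.6) and Ciart (7.11-fold, 3.99 to 12.7), followed by Per3 (4.65-fold, 3.3 to 6.57), Cry1 (3.13-fold, 2.43 to 4.03), Cry2 (2.36-fold, 1.81 to 3.07) and Per1 (1.68-fold, 1.3 to 2.17). The peaks fell in the order Ciart at 11.8 ± 0.6 h (SE), Per3 at 12.6 ± 0.4 h, Per1 at 13.6 ± 0.9 h, Per2 at 14.3 ± 0.5 h, Cry2 at 15.0 ± 0.6 h and Cry1 at 18.3 ± 0.4 h. The first 4 gaps between neighbours were 0.7 to 1.0 h with 95% intervals that include 0, with the errors of genes taken as independent. Cry1 followed Cry2 by 3.3 h (95% interval 1.9 to 4.7), Per2 by 4.0 h (2.8 to 5.2) and Per3 by 5.7 h (4.5 to 6.9). Per2 followed Per3 by 1.7 h (0.5 to 3.0), but the interval of this gap included 0 in HH by titles (1.5 h, -0.5 to 3.4) and over all treatments by titles (1.0 h, -0.9 to 2.8).

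The late place of Cry1 was seen in HH alone as well. There Cry1 followed Per2 by 3.8 h (95% interval 1.6 to 5.9) and Per3 by 5.2 h (3.1 to 7.3), and Per1, at 17.4 ± 1.5 h, could not be separated from Cry1 (gap 0.8 h, -2.6 to 4.3). By titles over all treatments Cry1 peaked at 22.3 ± 0.9 h and followed Per2 by 6.7 h (4.4 to 9.0) and Per3 by 7.6 h (5.6 to 9.7). Its gap to Cry2 was 5.9 h with an interval that included 0 (-1.4 to 13.3). This fit gives all treatments a common peak, while by titles Cry1 peaked at 1.2 h in HL, 23.0 h in LH and 18.3 h in HH. The gaps by titles are thus averages over unlike peaks, and their intervals do not include that difference.

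**Figure D4:**
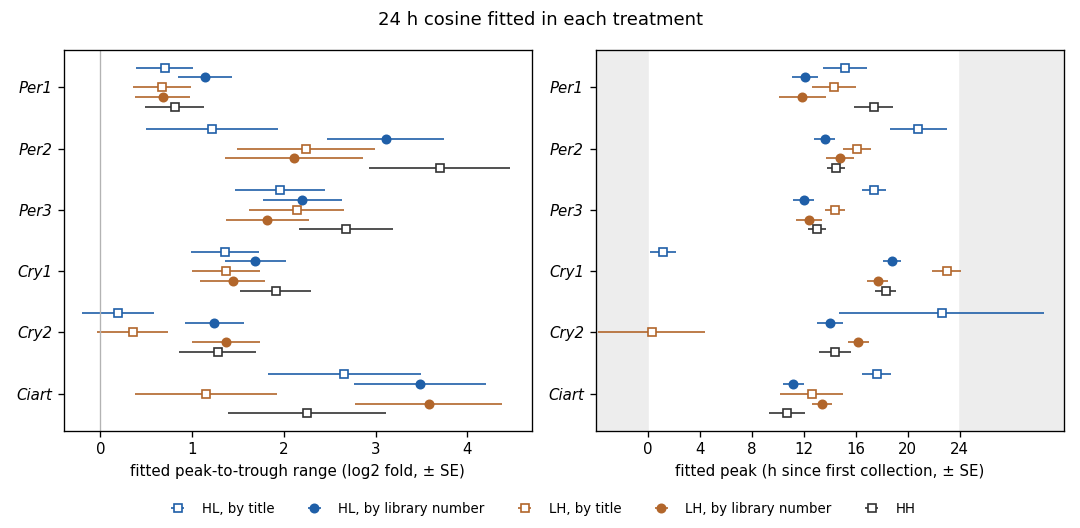
Fitted peak-to-trough range (left, log2 fold) and peak time (right, hours since the first collection, white band 0 to 24 h) of a 24 h cosine for each gene in HL, LH and HH, with bars of 1 SE, open squares by title and filled circles by library number. By number the HL, LH and HH peaks of Cry1 lie at 18.8, 17.7 and 18.3 h, while by title those of HL and LH lie at 1.2 and 23.0 h. The peaks of Cry2 by title have wide errors in HL and LH (SE 7.9 and 4.1 h), where its fitted range is small, and not in HH (SE 1.2 h).

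Differences in rhythm between treatments were tested directly, as the difference of the cosine terms in edgeR. For LH against HL 0 of the 6 genes passed by titles after adjustment, with 0.0677% of genes called. The counts for HH against HL and for LH against HH were also 0, with 0.0150% and 0.0527% called. At an unadjusted p under 0.05 the counts were 0, 4 and 2 of 6, where 7.21%, 9.91% and 9.61% of genes fell under it. The 4 genes of HH against HL were Cry1 (adjusted p = 0.0769), Per3 (adjusted p = 0.22), Per2 (adjusted p = 0.263) and Ciart (adjusted p = 0.291). For Cry1 the peaks were 18.3 ± 0.8 h in HH and 1.2 ± 1.0 h in HL by titles. DESeq2 called the Cry1 difference (adjusted p = 0.011), the only one of 18 tests it called, and it called 0.143% of genes in that comparison. By library numbers none of the 18 tests passed (smallest adjusted p = 0.742), with 0.00758%, 0.00% and 0.00% of genes called in the same order. The smallest unadjusted p was then 0.0161, for Per1 in HH against HL, and that of Cry1 in HH against HL was 0.787.

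Mean levels over the time course were compared in edgeR with collection as a term, and no gene of the 6 passed after adjustment in any pair of treatments, by titles (0.00% of genes called in each pair) or by numbers (0.0152%, 0.00758% and 0.0227% for LH against HL, HH against HL and LH against HH). By titles 1 of the 18 tests had an unadjusted p under 0.05 (5.69%, 7.41% and 5.23% of all genes in the same order) and by numbers 0 did, and DESeq2 by titles also gave 1 and called none after adjustment (smallest adjusted p = 0.491). That test was Cry2 in LH against HL, at 15.0 ± 6.55 CPM (SD, n = 22) and 11.6 ± 6.21 CPM (n = 21), a log2 fold change of 0.49 ± 0.17 (SE, p = 0.00639, adjusted p = 0.592). By numbers the Cry2 means were 13.1 CPM in LH and 13.2 CPM in HL, and the log2 fold change 0.09 (95% interval -0.18 to 0.36).

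The intervals show what these libraries could resolve. For Per1 the log2 fold changes by titles were 0.07 to 0.2, with interval bounds of -0.22 to 0.49 over the 3 pairs. For Ciart, at a mean of 1.7 CPM in LH, 1.15 in HL and 0.985 in HH, the bounds for LH against HH ran from -0.13 to 1.5, which spans no change and more than a 2-fold change. For Per2, at 2.54, 4.22 and 4.62 CPM in HL, LH and HH, the log2 fold change for HH against HL was 0.5 (95% interval -0.29 to 1.29). Per3 had 6.58, 8.17 and 9.6 CPM and Cry1 20.7, 21.8 and 20.2 CPM in the same order.

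Other clock genes place the repressors in the loop. Of the 3 activator genes, edgeR called a shared rhythm in 1 by titles, Arntl, and in 2 by numbers, Arntl and Clock. Arntl, at a mean of 5.02 CPM, peaked at 0.1 ± 0.5 h by numbers (adjusted p = 9.73e-07) and at 2.0 ± 0.6 h by titles (adjusted p = 0.00342), with a range of 2.38 and 1.98 on the log2 scale. Clock, at 67.1 CPM, had a small range of 0.41 on the log2 scale by numbers (adjusted p = 0.00116) and 0.11 by titles. No gene of this list or of the 3 others below passed the level test in any pair, in either assignment.

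Of 8 other targets and output factors, 6 had a shared rhythm by titles and 8 by numbers. In HH alone, 6 of the 8 passed JTK at 0.01. The most abundant was Tef, a D-box activator, at 125 CPM with a peak at 13.0 ± 0.2 h by numbers and 14.7 ± 0.5 h by titles. Nr1d1, which encodes the repressor REV-ERBα that acts on Arntl and Cry1, peaked at 9.4 ± 0.3 h by numbers and 11.5 ± 0.5 h by titles. Its paralog Nr1d2 peaked at 12.0 ± 0.3 and 13.6 ± 0.6 h, and Hlf at 15.2 ± 0.6 h by numbers, where its adjusted p was 0.000133, while by titles it was not called (adjusted p = 0.447). By numbers, Nr1d1 thus preceded all 6 repressors and Arntl stood nearly opposite Per3 in the 24 h cycle.

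Kinases and ubiquitin ligases act on the PER and CRY proteins and affect their stability. Of 8 such genes 7 were tested, and 0 were called for a shared rhythm in either assignment, with unadjusted p of at least 0.0874. Their median range was 0.08 on the log2 scale by titles and 0.09 by numbers, and the most abundant was Gsk3b at 369 CPM. Of 8 acute inducible genes, which answer quickly to serum and growth factors as Per1 can, 0 were called by titles and 2 by numbers, Egr1 (adjusted p = 6.52e-06, range 1.43 on the log2 scale, peak 14.3 ± 0.5 h) and Fos (adjusted p = 0.00897, peak 14.2 ± 0.7 h). Both passed JTK in HH, with P of 0.000671 and 0.00264. The medium was last changed before the first collection in all treatments, and the part of these genes in the Per values was not tested.

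Correlations over the libraries need neither titles nor numbers. Over all 62 libraries on log2(CPM + 1), with treatment, collection and depth shared by the genes of a library, Per3 followed Tef (Spearman 0.76), Dbp (0.74) and Bhlhe41 (0.69), which were the 3 genes most like it among 9271 genes with a mean of at least 5 CPM, and it ran opposite to Arntl (-0.77). The genes most like Per2 were Tspan4 (0.71), Tef (0.64) and Dbp (0.64). Those most like Ciart were Nr1d2 (0.76), Dbp (0.68) and Nr1d1 (0.65). Dbp is a target of CLOCK and BMAL1 through E-boxes, and DBP and TEF bind D-boxes of the kind printed for Per3.

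The genes most like the cryptochromes and Per1 were not clock genes of the lists. With Nr1d2, Cry2 stood at 0.51 and Per1 at 0.46, beside 0.44 for Per2, and Cry2 was also at 0.51 with Tef and 0.45 with Dbp. Among the activators and output factors, Hlf had the highest positive value with Per1 (0.5) and with Cry1 (0.49). Cry1 was most like Cpne8 (0.60), Psmb8 (0.57) and Pim1 (0.57), and it ran against Nr1d1 (-0.58). Cry2 was most like Ifi211 (0.73), Tgfb2 (0.62) and Stc2 (0.62), and Per1 most like Ddx6 (0.56), Ip6k1 (0.54) and Fzd2 (0.54). Between members, the highest value was that of Per2 with Per3 (0.60), followed by Per3 with Ciart (0.50), and Cry1 stood at 0.03 with Per2 and -0.35 with Per3. The median absolute correlation of a member with all genes compared was 0.106 to 0.18, and without the library of 104912 counts the value of Per2 with Per3 was 0.66 and that of Per3 with Arntl -0.76.

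**Figure D5:**
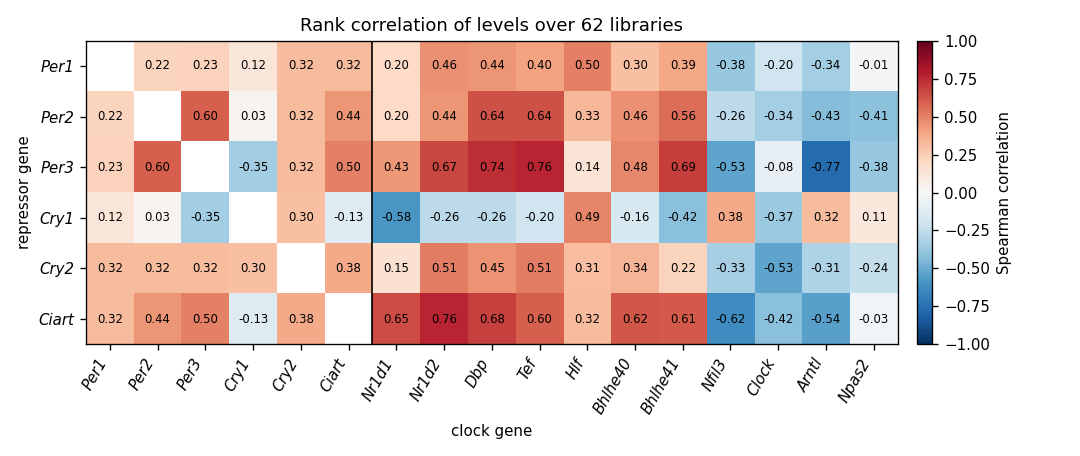
Spearman correlation over 62 libraries of log2(CPM + 1) between each of the 6 repressor genes (rows) and the members and other clock genes (columns), coloured from -1 (blue) to 1 (red). Per3 and Ciart are positive with Nr1d2, Dbp and Tef and negative with Arntl, while Cry1 is negative with Nr1d1 (-0.58).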

How the data were processed

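Total RNA of the fibroblasts was sequenced by 3′DGE. Per the labels and the submitters' processing notes, base calls were made with bcl2fastq, reads were aligned with STAR 2.6.0a to mm10 and counted with HTSeq 0.9.1. The authors deposited raw counts per gene, 121 sets with 1 for each run of a library, without normalization, and neither the annotation release nor the strand setting is given in the sources used here. Reads on no feature (18.4% to 29.1% of a run) and ambiguous reads (0.288% to 0.459%) stayed out of totals. Runs of a library were summed (59 libraries had 2 runs, 3 had 1) and divided by the total to give CPM. Symbols were taken from a gene table, positions from GENCODE M21 (GRCm38) and promoter sequences from RefSeq (GRCm38.p6).

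Treatment and collection came from the sample titles, and again from library numbers, and time from the order of collections and the interval of 4 h. The clock hours in the labels repeat within a series and were an alternative. In LH every hour is shared by collections at opposite points of a 24 h cycle, so a 24 h cosine cancels. In HL and HH the collections of 4 and 16 h share an hour, which weakens it. The gene filter was 1 CPM or more in 3 or more libraries. Rhythms within a treatment were tested by a new implementation of JTK_CYCLE with its exact null distribution, a 24 h period, phases in steps of 2 h and a correction over the 6 distinct phases. edgeR 4.0.16 (quasi-likelihood, TMM) tested shared rhythms, rhythm differences and mean levels, and DESeq2 was an alternative. Adjusted p-values are Benjamini-Hochberg over all genes tested. The tests were first run on simulated data. Of 200 genes with a 4-fold rhythm JTK_CYCLE found 186, 171 and 176 with the HL, LH and HH libraries, with 82, 100 and 82 false calls. edgeR found 183 shared rhythms (14 false calls), 133 of 200 rhythms present in LH but not HL (6 false calls) and 155 of 200 changes of 2-fold for LH over HL (6 false calls). The JTK_CYCLE simulation gave all genes the same spread, smaller than that of any member. The edgeR simulation used the trend of the spread over genes of like level. The biological coefficient of variation of the members was 28.9% (Per1) to 80.1% (Per2), above the trend for all but Per1. These shares therefore do not measure how often a rhythm of the members would be found.

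The members, gene lists and tests were chosen with earlier results of these data known. All 6 genes are described. For each list counts are given, with values for at most 4 genes, taken from the most abundant and those with an adjusted p under 0.05, and the 3 genes most alike each member are named by Spearman correlation. The authors' read summary was used only for library numbers and for the libraries it marks as removed.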

Additional observations from a re-analysis of the deposited data

Results flagged for a closer look

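Of 54 groups of 4 libraries (a gene in a treatment and collection, by titles), 5 held a library far from the other 3, by a gap that chance alone exceeds in about 1 of 20 groups. Between them, 2 libraries account for 4 of the 5. In LH collection 3 replicate 4, Per2 stood at 3.1 CPM and Ciart at 3.87 CPM, with the nearest other libraries of the group at 0.613 and 1.08 CPM. By its number this library belongs to HL at 8 h, where Per2 was also 6.1 and 3.02 CPM and Ciart 3.14 and 1.6 CPM. In LH collection 5 replicate 1, Per2 stood at 12.5 CPM and Per3 at 24.4 CPM, the nearest others being at 5.47 and 10.3 CPM. By number it belongs to HL at 12 h, with the others at 4.2 to 10.4 CPM for Per2 and 9.54 to 21.4 CPM for Per3. In HL collection 4 replicate 2, Cry1 stood at 19.5 CPM against 6.85 to 8.02 CPM. By number it belongs to LH at 4 h, where the others had 10.5 and 7.59 CPM. The rule was not applied to groups by library number, so this list can show only libraries that stand apart by title. Wide gaps occur by number too. In LH by number, Cry1 at 8 h had 8.02, 6.85, 6.12 and 32.6 CPM, and Cry2 at 20 h had 13.7, 15.6, 13.8 and 33.0 CPM. Which name is right was not tested.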

How the results depend on the processing

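The number of members called rhythmic by JTK_CYCLE in HL was 0, and became 4 by library numbers, 1 at a threshold of 0.05 and 3 by an edgeR cosine at an unadjusted 0.01, with 0 without each replicate in turn. In LH it was 2, and became 1 by library numbers and 0 after adjustment over genes. It was 0 to 1 without each replicate, and 1 to 2 by numbers without each replicate. With label hours it was 0, but there opposite points of the 24 h cycle share an hour and a 24 h cosine cancels. In HH it was 3, and became 0 with label hours, 0 after adjustment over genes and 5 at 0.05, with 2 to 3 without each replicate. Label hours merge the opposite collections of 4 and 16 h in HH and HL, and the shared rhythm below used the same hours. The counts of 0 with label hours therefore do not show a lack of rhythm. The shared rhythm called 1 member by titles, and 6 by library numbers, 2 with the first run alone, 3 with no gene filter, 0 with label hours and 2 by DESeq2, with 1 to 3 without each replicate (3 without HL replicate 2). By numbers it called 5 to 6 without each replicate. The rhythm difference of HH against HL called 0, and 1 with no gene filter and 1 by DESeq2, with 0 to 1 without each replicate (Cry1, without HL replicate 2 or HL replicate 4). The other differences of rhythm and all differences of level stayed at 0 of 6 in every alternative run.

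Some log2 fold changes of levels, none of them called, changed sign. By library numbers LH against HL gave -0.04 for Per1, -0.1 for Per2, -0.15 for Per3 and -0.26 for Ciart, and LH against HH gave -0.08 for Per1. With the second run alone HH against HL gave -0.05 for Per1 and 0.46 for Ciart, and without the libraries marked as removed 0.08 for Ciart. Without 1 replicate, Cry1 gave -0.05 to 0.2 for LH against HL and -0.23 to 0.05 for HH against HL, Ciart -0.24 to 0.08 for HH against HL, and Per1 -0.03 to 0.15 for LH against HH. Replicate numbers of the titles showed no pairing in the median. The correlation of deviations had a median of 0.00117 over 452 pairs with the same number (-0.649 to 0.754) and -0.000473 over 1360 with other numbers (-0.752 to 0.729). A pairing could be missed where the titles of HL and LH are in dispute. The replicate block changed no call, leaving 1 shared rhythm by titles and 6 by numbers.

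Of 1139 recomputed values for single genes, 1073 kept their direction and side of the threshold, 24 lost a call, 25 gained one and 17 changed sign, and the cause was not tested. The 1073 include results that were not called and stayed so. Of 11 alternatives each, the JTK call by titles was kept in 4 for Cry1 and 8 for Per3 in LH. In HH it was kept in 7 for Cry2, 9 for Per3 and 10 for Cry1. The shared rhythm of Per3 by titles was kept in 23 of 24. Alternatives that combine library numbers with another change, and those without libraries under 1000000 counts by numbers, were added after the data were seen. Depth limits Ciart most, and the sources do not settle which library is which.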
